A study of Mus musculus with 9 samples.

Results

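The 9 genes described here act in the packing of newly copied DNA into chromatin or alongside it. They are Chaf1a, Chaf1b, Asf1a, Asf1b, Nasp, Chtf18, Uhrf1, Dnmt1 and Slbp. Each was found by its symbol on a single entry among the 54532 entries of the deposited count files, and all 9 passed the low-count filter that kept 14193 genes. They were chosen with earlier results of these data known, because Chaf1b and Chtf18 were lower in tumours carrying a hairpin, so differences from control are given for all 9 as a description with no p-value. The libraries came from B16-F10 mouse melanoma cells grown under the skin of C57BL/6 mice and taken on day 16. The groups had 3 libraries each: a control short hairpin RNA (shcontrol, genotype WT), a hairpin against Fbxo38 (shFBXO38#1) and another hairpin against the same gene (shFBXO38#2). The label "treatment" read none for all 9 libraries. The genotype labels of the 6 Fbxo38 hairpin libraries named FBXO38 to FBXO43 in turn, so groups were taken from the titles. The labels gave no age or sex of the hosts, did not say whether a hairpin line was a clone or a pool, and left unsaid whether each replicate was a different animal. P-values therefore measure the spread between these samples. The tumours also held host cells, and fewer cells of a type and less RNA per cell cannot be told apart in bulk RNA.

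When a cell copies its genome, histones H3 and H4 must be placed on both daughter strands behind the fork. The chaperone CAF-1, whose subunits are encoded by Chaf1a, Chaf1b and Rbbp4, is held at the fork by the sliding clamp PCNA and deposits new H3-H4. Asf1a and Asf1b encode the chaperones that hand H3-H4 to CAF-1, and Nasp guards the soluble pool of these histones. Chtf18 encodes the large subunit of an alternative clamp loader that acts on PCNA at the fork and serves cohesion of sister chromatids. Uhrf1 recognises DNA methylated on the parental strand and brings in Dnmt1, the methyltransferase that copies the mark. Slbp binds the stem-loop of replication-dependent histone messages and is needed for their processing and translation.

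Library totals ran from 15322163 to 17342554 counts, and the 9 genes had between 337 and 7229 counts in a library. Levels are in CPM, a gene's counts scaled to a common library size (TMM normalisation). Fbxo38, the target, stood at 27.9 ± 5.41 CPM in control, 26.0 ± 7.87 in the libraries labelled hairpin 1 and 14.7 ± 5.39 with hairpin 2 (SD, n = 3). A lower level was thus not detectable in the libraries labelled hairpin 1 (edgeR log2 fold change -0.10, adjusted p = 1), which are called by their label throughout. With hairpin 2 the log2 fold change was -0.92 (SE 0.29; edgeR adjusted p = 0.254). By library, Fbxo38 stood at 21.7, 31.3 and 30.8 CPM in control and 35.1, 21 and 22 labelled hairpin 1. With hairpin 2 it stood at 21, 11.4 and 11.9 CPM, so replicate 1 lay just below control replicate 1. Neither hairpin group was thus uniform in its level of Fbxo38. Scores on the first principal component were 60.6 for replicate 1 labelled hairpin 1 and -54.8 for hairpin 2 replicate 2, beyond the other 7 libraries (-21.5 to 30.7). The sum of 8 fibroblast markers was 177 to 416 CPM in control, 3277, 265 and 760 in replicates 1 to 3 labelled hairpin 1, and 285, 482 and 1414 with hairpin 2, so that 4 of the 6 Fbxo38 hairpin libraries lay above every control. The sum of 6 erythroid markers was 2541 to 4969 CPM in control, 1490, 1033 and 1061 labelled hairpin 1, and 421, 21472 and 524 with hairpin 2. It lay below every control in 5 of these 6 libraries and far above in hairpin 2 replicate 2. The sum of 8 melanoma markers overlapped between groups, at 22827 to 28473 CPM in control, 22944 to 27589 labelled hairpin 1 and 21899 to 27317 with hairpin 2. In the same order, the 10 leukocyte markers summed to 58.7 to 170, 59.1 to 239 and 24.3 to 263 CPM, and the 8 endothelial markers to 593 to 662, 603 to 708 and 514 to 661 CPM. The keratinocyte and adipocyte markers were each under 1 CPM in sum, with Krt5, Krt14, Krt1 and Lep at 0 counts. The skeletal muscle markers summed to at most 14.6 CPM. The part that host cells play in the results below was not tested.

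Levels of different genes were compared per kilobase of the longest protein-coding transcript in GENCODE M21. In control tumours Uhrf1 was the most abundant, at 106 to 120 CPM per kb. Dnmt1 followed at 57.8 to 73 CPM per kb, and its range met that of Chaf1b, at 58.7 to 59.3. Slbp (33 to 36.8), Nasp (28.7 to 34.2) and Asf1b (28.6 to 32.5 CPM per kb) came next, and each overlapped the next of these. Chaf1a averaged 21.5 ± 1.32 CPM per kb (SD, n = 3) and Chtf18 stood at 12.3 to 14.7. Asf1a was the lowest at 9.76 to 11.9. With the longest transcript of any kind in place of the coding one, a choice made after the values were seen, the ranks of Slbp and Asf1b traded places and the other 7 kept theirs.

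Within CAF-1, the Chaf1b message was lower in all 6 Fbxo38 hairpin libraries, while Chaf1a with hairpin 2 overlapped the controls. Chaf1b (encoding the middle subunit; ENSMUSG00000022945.12, GRCm38 chromosome 16, 93883901 to 93906115, plus strand, no exon shared with another gene in GENCODE M21) had 113, 114 and 113 CPM in the control libraries. It had 92.9, 105 and 82.9 CPM labelled hairpin 1, and 79.9, 64.6 and 68.6 CPM with hairpin 2. All 6 other libraries lay below the controls, and all 3 hairpin 2 libraries lay below all 3 labelled hairpin 1. The controls had an SD of 0.595 CPM, or 0.525% of their mean, beside 11.7% labelled hairpin 1 and 11.1% with hairpin 2. At 1744 to 1898 counts a library, so small an SD is less than counting alone would be expected to give. It is therefore no measure of the spread between control tumours. The fitted level was 62.7% of control with hairpin 2 (log2 fold change -0.67, SE 0.12, 95% interval -0.93 to -0.41) and 82.5% labelled hairpin 1 (-0.28, SE 0.12, interval -0.54 to -0.02).

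Chaf1a (ENSMUSG00000002835.9, chromosome 17, 56040439 to 56072289, plus strand) encodes the large subunit, which binds PCNA. Its exons overlap those of Ubxn6 on the other strand, and whether counting used strand is not given in the sources used here. It had 123, 111 and 124 CPM in control, 84.7, 104 and 106 labelled hairpin 1, and 111, 117 and 97.1 with hairpin 2. The libraries labelled hairpin 1 lay below every control, while those of hairpin 2 overlapped the controls. The fitted log2 fold changes were -0.28 (SE 0.12) and -0.14 (SE 0.12), and the latter was -0.06 without hairpin 2 replicate 3. Per kilobase, the ratio of Chaf1b to Chaf1a was 2.65, 2.96 and 2.63 in control and 3.16, 2.91 and 2.26 labelled hairpin 1. With hairpin 2 it was 2.06, 1.59 and 2.04, below every library of both other groups. This ratio and the partner ratios below were chosen after their values were seen. How many other gene pairs separate in this way was not counted. The transcripts of Chaf1b and Chaf1a also differ in length, with which fold changes with hairpin 2 ran, as described below.

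**Figure D1:**
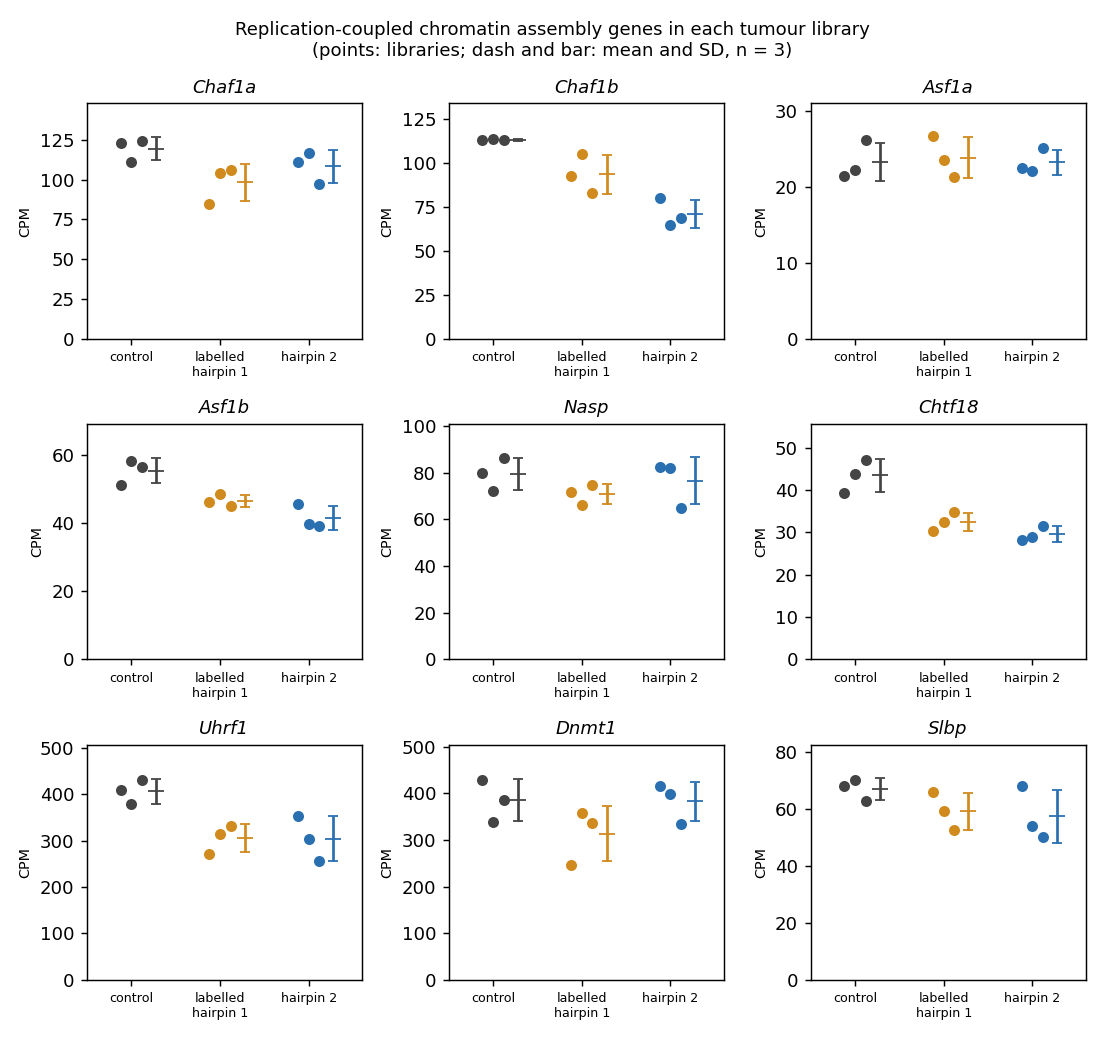
Level of each of the 9 genes in CPM (vertical axis, from 0) in the 3 control libraries, the 3 labelled hairpin 1 and the 3 of hairpin 2; points are libraries, and the dash with its bar is the mean ± SD. Chaf1b, Asf1b, Chtf18 and Uhrf1 have all 6 Fbxo38 hairpin libraries below every control, and Asf1a stays between 21.3 and 26.7 CPM in all 9.

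Of the histone chaperones upstream of CAF-1, Asf1b separated from control in both hairpin groups, while Asf1a and Nasp overlapped control. Whether the genes differ from each other was not tested. Asf1b (ENSMUSG00000005470.8, chromosome 8, 83955507 to 83970197, plus strand) had 51.1, 58.2 and 56.5 CPM in control, 46.0, 48.4 and 45.1 labelled hairpin 1, and 45.6, 39.8 and 39.2 with hairpin 2. All 6 Fbxo38 hairpin libraries were below all 3 controls, with fitted log2 fold changes of -0.25 (SE 0.11) labelled hairpin 1 and -0.41 (SE 0.11) with hairpin 2. Its paralog Asf1a (ENSMUSG00000019857.7, chromosome 10, 53596757 to 53609225, plus strand), which serves replication-independent deposition as well, had 21.5, 22.2 and 26.2 CPM in control. It had 26.7, 23.6 and 21.3 CPM labelled hairpin 1 and 22.5, 22.1 and 25.2 with hairpin 2, so the groups overlapped. Its log2 fold changes were 0.04 (95% interval -0.27 to 0.34) and 0.00 (-0.30 to 0.30); exons of Asf1a overlap Mcm9 on the other strand. The ratio of Asf1b to Asf1a per kilobase was 2.66 to 3.23 in control, 2.12 to 2.61 labelled hairpin 1 and 1.91 to 2.49 with hairpin 2. Nasp (ENSMUSG00000028693.15, chromosome 4, 116601052 to 116627941, minus strand) had 80.0, 72.2 and 86.2 CPM in control, 71.9, 66.2 and 74.9 labelled hairpin 1, and 82.7, 82.2 and 64.9 with hairpin 2. These ranges overlapped, with log2 fold changes of -0.16 (SE 0.12) and -0.05 (SE 0.12). The former was -0.10 without control replicate 3, and the latter 0.05 without hairpin 2 replicate 3.

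Chtf18 (ENSMUSG00000019214.14, chromosome 17, 25718926 to 25727419, minus strand) had 39.4, 43.8 and 47.2 CPM in control. It had 30.4, 32.4 and 34.7 CPM labelled hairpin 1 and 28.1, 29.0 and 31.6 with hairpin 2. All 6 lay below every control, and the ranges of the 2 hairpins overlapped. The fitted level was 74.8% of control labelled hairpin 1 (log2 fold change -0.42, SE 0.11, 95% interval -0.67 to -0.16) and 68.1% with hairpin 2 (-0.56, SE 0.12, interval -0.81 to -0.30). Exons of Chtf18 overlap Gng13 on the other strand.

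Of the methylation pair, Uhrf1 (ENSMUSG00000001228.14, chromosome 17, 56303321 to 56323486, plus strand) had 409, 378 and 430 CPM in control, 271, 313 and 331 labelled hairpin 1, and 353, 304 and 256 with hairpin 2. All 6 lay below every control, and the fitted levels were 75.2% and 75% of control (log2 fold changes -0.41 and -0.41, SE 0.13 each). Dnmt1 (ENSMUSG00000004099.16, chromosome 9, 20907209 to 20959888, minus strand) had 429, 339 and 387 CPM in control, 247, 359 and 336 labelled hairpin 1, and 415, 399 and 335 with hairpin 2. Both hairpin groups overlapped the controls; the low value of 247 CPM was in the fibroblast-rich replicate 1 labelled hairpin 1. The log2 fold changes were -0.29 (SE 0.15) and -0.01 (SE 0.15), and the former was -0.16 without replicate 1 labelled hairpin 1. The ratio of Uhrf1 to Dnmt1 per kilobase was 1.56, 1.82 and 1.82 in control, 1.79, 1.43 and 1.61 labelled hairpin 1, and 1.39, 1.25 and 1.25 with hairpin 2. As for the CAF-1 subunits, the hairpin 2 libraries held the 3 lowest ratios.

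Slbp (ENSMUSG00000004642.13, chromosome 5, 33634952 to 33652574, minus strand, with exons that overlap Gm10459 on the other strand) had 68.0, 70.1 and 62.9 CPM in control. It had 65.8, 59.1 and 52.6 CPM labelled hairpin 1 and 67.9, 53.9 and 50.3 with hairpin 2. Each hairpin group held a library within the control range. The log2 fold changes were -0.18 (SE 0.14) and -0.22 (SE 0.14). The former was -0.28 without replicate 1 and -0.105 without replicate 3 labelled hairpin 1, and the latter -0.365 without replicate 1 and -0.14 without replicate 3 of hairpin 2.

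**Figure D2:**
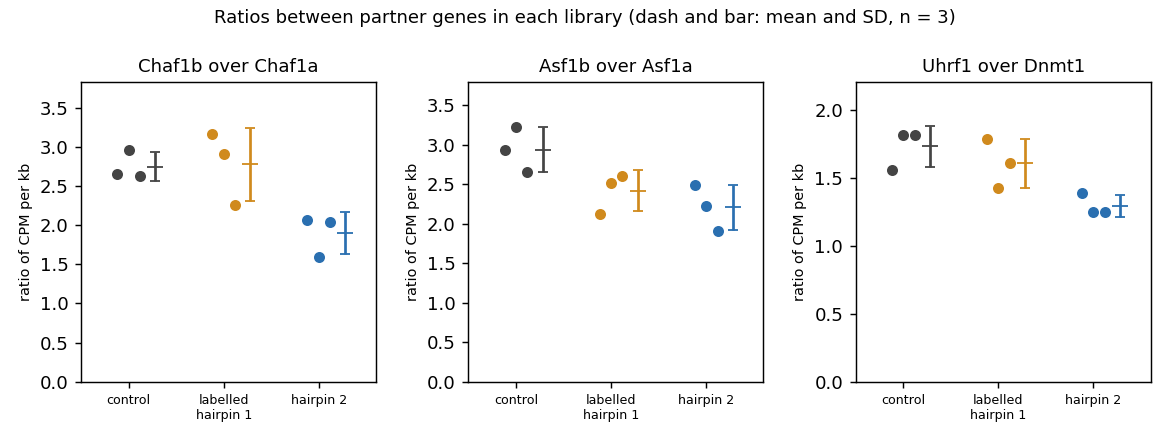
Ratio of CPM per kb (vertical axis, from 0) for Chaf1b over Chaf1a, Asf1b over Asf1a and Uhrf1 over Dnmt1 in each library; points are libraries, and the dash with its bar is the mean ± SD of 3. Hairpin 2 libraries hold the 3 lowest values for Chaf1b over Chaf1a (1.59 to 2.06) and for Uhrf1 over Dnmt1 (1.25 to 1.39).

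Seen as a set, 8 of the 9 genes had a negative log2 fold change labelled hairpin 1, where 47.4% of all tested genes did, with a median of -0.28 beside 0.01 over all tested genes. With hairpin 2, the median was -0.22 beside 0.01, from -0.67 for Chaf1b to 0.00 for Asf1a, and 48.5% of all genes were below 0. The same 8 genes, all but Asf1a, were below 0 in both contrasts, beside 29.6% of all genes. Every library labelled hairpin 1 lay below every control for 5 of the 9 (Chaf1a, Chaf1b, Asf1b, Chtf18 and Uhrf1), where 4.30% of all tested genes did so. Hairpin 2 libraries did so for 4 of the 9 (Chaf1b, Asf1b, Chtf18 and Uhrf1), beside 10.2% of all genes, and all 6 libraries together for the same 4, beside 1.61%. Other cell cycle genes shared this trait. In the same order of libraries, it held for 10, 5 and 5 of the 17 S phase genes described below. It held for 9, 6 and 6 of the 12 G2 and M phase genes. None of the 9 had all libraries labelled hairpin 1, all of hairpin 2, or all 6 above every control, beside 4.09%, 10.6% and 1.36% of all genes. The genes were chosen on these contrasts, which also share their controls, so nothing is read from these counts. Without the 2 libraries that stood apart the counts were 6, 4 and 4, beside 9.66%, 13.0% and 4% of all genes in the same libraries. With any single library left out the counts were 5 to 7, 4 to 5 and 4 to 5, beside 6.44% to 10.2%, 12.7% to 20.0% and 1.90% to 5.19% of all genes. Across all genes, edgeR called 0 of 14193 in either contrast at an adjusted p under 0.05 (0% of genes). The unadjusted p was under 0.05 for 450 genes labelled hairpin 1 and for 2046 with hairpin 2; DESeq2 called 0 and 303, and limma-voom 0 and 0.

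**Figure D3:**
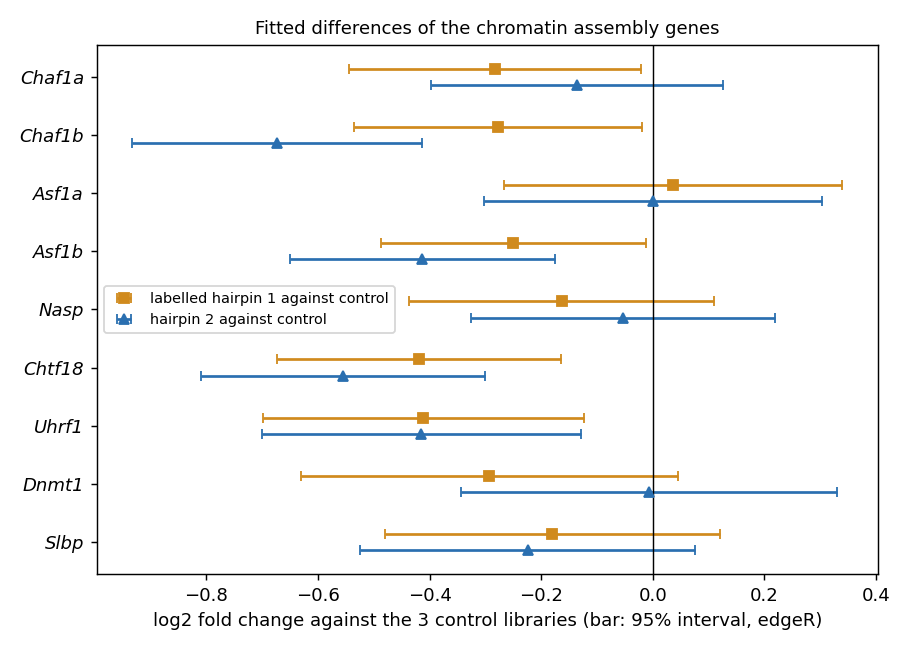
Fitted log2 fold change of each gene against the 3 control libraries (horizontal axis), with 95% intervals from edgeR, for the libraries labelled hairpin 1 and for hairpin 2. Chaf1b and Chtf18 lie farthest left with hairpin 2 (-0.67 and -0.56), and Asf1a lies at 0.04 and 0.00. The intervals are not adjusted for the choice of the genes and are not read as tests.

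Fold changes with hairpin 2 ran with transcript length. Spearman's rho of the log2 fold change with length was 0.392 with hairpin 2 and -0.016 labelled hairpin 1, across 14106 genes that do not stand for independent replicates. These pairs differ in length: Chaf1a and Dnmt1 have coding transcripts of 5535 and 5870 bases, and Chaf1b, Asf1b and Uhrf1 of 1922, 1788 and 3586. With the trend in length and GC content removed from each library, the hairpin 2 log2 fold change was -0.54 for Chaf1b and -0.28 for Chaf1a, in place of -0.67 and -0.14. The CAF-1 subunits lay closer together in that fit, with Chaf1b still the lower of the pair; how far length accounts for their difference was not tested further. In the same fit the value was -0.29 for Asf1b, -0.48 for Chtf18, -0.41 for Uhrf1 and -0.18 for Dnmt1.

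The comparison of hairpin 2 with the libraries labelled hairpin 1 was not itself used to choose the genes, and p-values are given for it. It shares its libraries with the contrasts that were used. Its p-values for Chaf1b and Chtf18 may therefore not be independent of that choice. None of the 9 passed edgeR's adjusted p of 0.05, and 0 of all 14193 genes did (0%), with 1655 at an unadjusted p under 0.05, 89 called by DESeq2 and 0 by limma-voom. Chaf1b came nearest, with a log2 difference of -0.40 (SE 0.12, 95% interval -0.66 to -0.14). All 3 hairpin 2 libraries were below all 3 labelled hairpin 1, and the groups overlapped for the other 8 genes. Hairpin 2 was lower in this way for 7.67% of all tested genes and higher for 8.31%. In sign, 6 of the 9 differences were below 0, beside 49.8% of all genes. Its edgeR p was 0.00656 unadjusted and 0.375 adjusted, and 0.1 by a two-sided exact permutation test, which cannot go lower with 3 libraries a group. In the fit without length and GC trends it was -0.21. Dnmt1 differed in the other direction, by 0.29 (95% interval -0.05 to 0.62; edgeR adjusted p = 0.474). For Uhrf1 the difference was 0.00 (interval -0.29 to 0.28), and for Chtf18 -0.14 (interval -0.39 to 0.12). The edgeR adjusted p was 0.993 for Uhrf1, 0.656 for Chtf18, and from 0.563 to 0.936 for Asf1b, Chaf1a, Nasp, Slbp and Asf1a.

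The annotated promoters of the 4 genes whose 6 Fbxo38 hairpin libraries lay below every control are printed to show which cell cycle motifs these genes do and do not share. Each sequence runs 5′ to 3′ on the gene's strand, from 250 bases before to 50 bases after the annotated start (RefSeq, GRCm38.p6). Capitals mark TTCCCGC or TTGGCGC, letters of the site bound by E2F, the factor family that drives S phase genes, or TTTGAA, the cell cycle homology region (CHR), on either strand.
Chaf1b (chr16:93883651-93883950, plus strand): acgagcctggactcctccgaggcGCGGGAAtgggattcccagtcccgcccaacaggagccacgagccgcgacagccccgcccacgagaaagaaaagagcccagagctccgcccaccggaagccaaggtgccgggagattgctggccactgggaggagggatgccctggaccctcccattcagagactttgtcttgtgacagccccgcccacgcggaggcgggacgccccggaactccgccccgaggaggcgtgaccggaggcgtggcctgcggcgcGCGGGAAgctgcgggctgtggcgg
Chtf18 (chr17:25727366-25727665, minus strand): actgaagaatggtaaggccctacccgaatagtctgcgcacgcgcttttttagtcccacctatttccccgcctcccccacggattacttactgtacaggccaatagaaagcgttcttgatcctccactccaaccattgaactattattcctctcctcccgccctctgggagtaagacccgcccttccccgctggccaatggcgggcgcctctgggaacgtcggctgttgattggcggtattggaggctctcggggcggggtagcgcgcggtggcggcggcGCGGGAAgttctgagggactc
Uhrf1 (chr17:56303087-56303386, plus strand): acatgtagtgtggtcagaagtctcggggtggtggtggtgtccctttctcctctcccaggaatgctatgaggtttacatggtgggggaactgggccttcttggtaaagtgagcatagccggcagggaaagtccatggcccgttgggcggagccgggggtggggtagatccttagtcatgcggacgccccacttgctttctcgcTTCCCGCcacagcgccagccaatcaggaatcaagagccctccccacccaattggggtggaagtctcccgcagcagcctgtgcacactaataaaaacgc
Asf1b (chr8:83955444-83955743, plus strand): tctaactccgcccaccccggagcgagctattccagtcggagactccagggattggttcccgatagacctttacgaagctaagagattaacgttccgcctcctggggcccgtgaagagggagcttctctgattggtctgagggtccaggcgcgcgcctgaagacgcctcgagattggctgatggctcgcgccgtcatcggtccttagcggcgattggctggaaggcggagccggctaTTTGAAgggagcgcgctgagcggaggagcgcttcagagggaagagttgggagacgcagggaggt
Chaf1b held 2 matches to TTCCCGC, both read on the other strand, and the nearer began 26 bases after the start. Chtf18 held 1, beginning 29 bases after the start, and the Uhrf1 window shown held 1, beginning 48 bases before it. Uhrf1 has another annotated start, whose window (not shown) held no E2F letters and no TTTGAA. Asf1b held no E2F letters, but a TTTGAA 14 bases before the start and 4 CCAAT boxes. RefSeq gave 12 windows for the 9 genes. At least 1 window had the E2F letters in 5 genes (also Chaf1a, and Dnmt1 in 1 of its 3 windows), TTTGAA in 3 (Asf1b, Nasp and Dnmt1) and CCAAT in 8. Counted by window, these were 5, 3 and 10 of the 12. Over all 32851 promoter windows of the same length, 6.81% held the E2F letters, 17.9% TTTGAA and 37.4% CCAAT, where CCAAT on the other strand can share bases with TTGGCGC. Asf1a, whose groups overlapped, had none of the E2F or TTTGAA letters in its window, but neither did Slbp. A match is a description of letters and was not tested against the levels.

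The mean level of a list of S phase genes was also below every control in the 6 Fbxo38 hairpin libraries, so each gene was set against it. The mean log2 CPM of 17 S phase genes such as Mcm2, Mcm6 and Rrm1 was 6.60 to 6.71 in control, 6.28 to 6.49 labelled hairpin 1 and 6.35 to 6.55 with hairpin 2. Relative to that mean, Chaf1b stood at 0.14, 0.24 and 0.11 in control and at 0.26, 0.22 and -0.11 labelled hairpin 1, on the log2 scale. With hairpin 2 it stood at -0.23, -0.40 and -0.25, below every other library. The mean difference from control on that scale was -0.46 with hairpin 2 and -0.04 labelled hairpin 1. Relative Uhrf1 was below every control in both groups, at 1.97 to 2.03 in control, 1.80 to 1.89 labelled hairpin 1 and 1.65 to 1.91 with hairpin 2. Relative Asf1b overlapped control labelled hairpin 1 and lay below it with hairpin 2 (-1.10 to -1.04 against -1.001 to -0.731). Relative Chtf18 overlapped control by a single control library at -1.38, with means of -1.22 in control, -1.39 labelled hairpin 1 and -1.55 with hairpin 2. How many of all tested genes separate from control on this relative scale was not counted. The genes were also chosen on these contrasts, so nothing is read from these separations. The group means of Chaf1a, Nasp and Slbp lay within 0.17 of their control means. Dnmt1 was at 1.81 to 2.06 in control and 2.03 to 2.22 with hairpin 2, and Asf1a at -2.247 to -1.997 in control and -2.05 to -1.69 with hairpin 2. Each gene was also set against 12 G2 and M phase genes in place of S phase genes. The hairpin 2 difference was then -0.53 for Chaf1b, -0.41 for Chtf18, -0.28 for Uhrf1, -0.27 for Asf1b and -0.09 for Slbp. It was 0.005 for Chaf1a, 0.086 for Nasp, 0.137 for Dnmt1 and 0.147 for Asf1a. Labelled hairpin 1 it was -0.04 for Chaf1b, -0.18 for Chtf18 and -0.17 for Uhrf1. The other genes ran from -0.065 for Dnmt1 to 0.275 for Asf1a labelled hairpin 1.

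**Figure D4:**
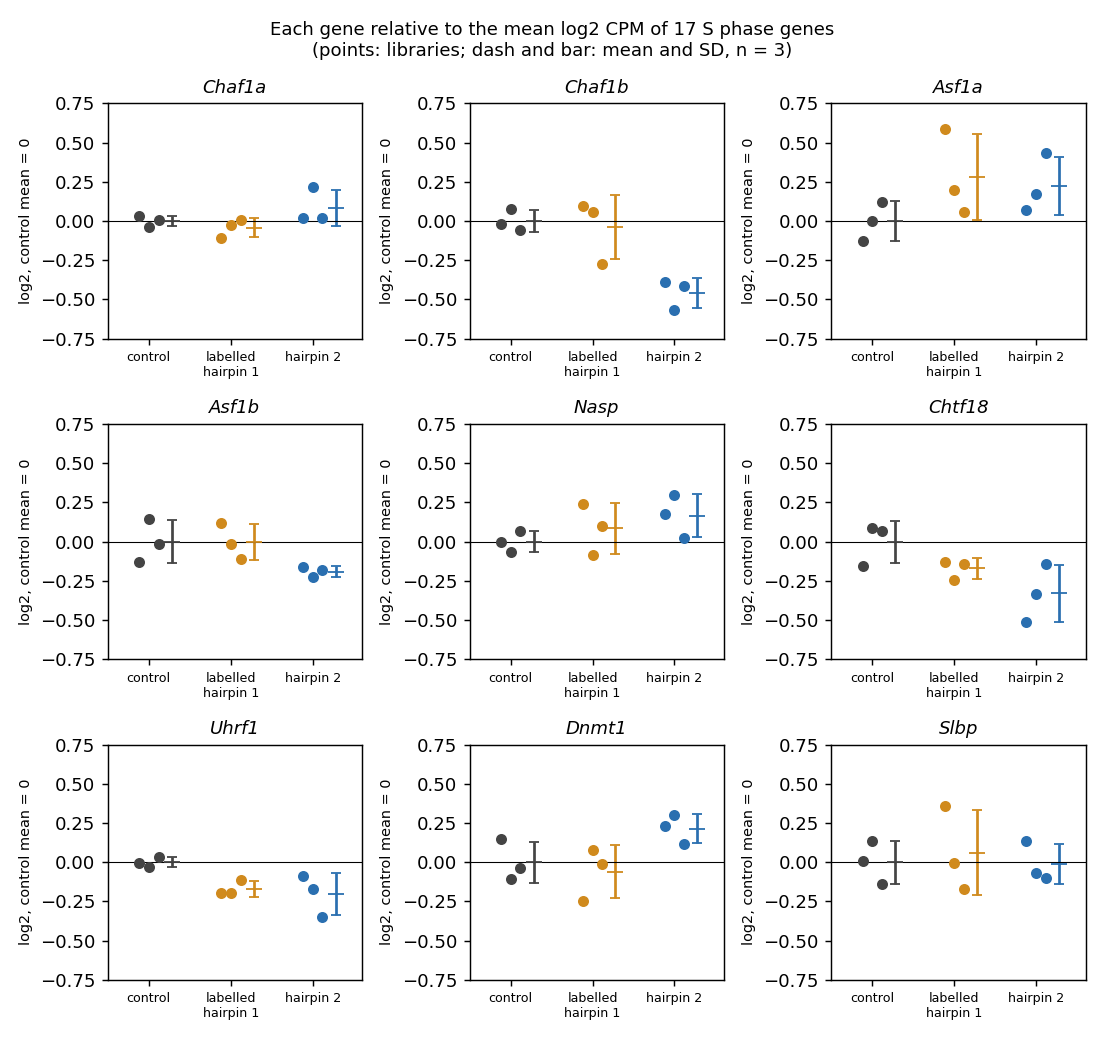
Log2 CPM of each gene less the mean log2 CPM of 17 S phase genes in the same library, with the control mean set to 0 (vertical axis); points are libraries, and the dash with its bar is the mean ± SD of 3. Chaf1b with hairpin 2 lies below all other libraries, with a mean of -0.46, and Uhrf1 lies below every control in both groups. The share of all tested genes that separate in this way was not counted.

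The 9 profiles fell into looser and tighter pairs. Likeness was measured as the root mean square difference between 2 genes' deviations from their own mean log2 CPM over the 9 libraries. The closest pair was Chaf1a and Dnmt1 (0.105), followed by Chaf1a and Nasp (0.119). Chaf1b was closest to Asf1b (0.140) and farthest from Dnmt1 (0.371, the largest of the 36 pairs), and its distance to its own partner Chaf1a was 0.302. The root mean square of the deviations of Chaf1b itself was 0.299. The trend in length was left in these profiles. Chaf1a and Dnmt1 have the longest coding transcripts of the 9 (5535 and 5870 bases), and that of Chaf1b has 1922. The part that length plays in these distances was not tested. Among 9324 other genes of at least 10 CPM, those nearest to Chaf1b were Wtip (0.102), C030006K11Rik, Rara, the retinoic acid receptor alpha gene, Xkr5 and Cchcr1 (0.113). Wtip had 64.0 ± 1.73 CPM in control, 55.1 ± 1.72 labelled hairpin 1 and 44.3 ± 3.49 with hairpin 2 (SD, n = 3). Those nearest to Chtf18 were Sf3b4, a splicing factor gene (0.080), Haus7, of the augmin complex, Tedc2, and the ribosome biogenesis genes Nop2 and Bysl (0.100). Sf3b4 had 167 ± 6.11 CPM in control, 139 ± 9 labelled hairpin 1 and 120 ± 1.25 with hairpin 2. The median distance over all these genes was 0.346 from Chaf1b and 0.307 from Chtf18.

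The wider machinery was described with 5 lists of partners, none of whose 72 tested genes is among the 9. No gene passed edgeR's adjusted p of 0.05 in either contrast. At an unadjusted p under 0.05, 7 genes were lower and 0 higher labelled hairpin 1, or 9.72% and 0% beside 1.32% and 1.85% of all genes. With hairpin 2, 7 were lower and 4 higher, or 9.72% and 5.56% beside 6.27% and 8.14% of all genes. Their median log2 fold change was -0.09 labelled hairpin 1 and -0.03 with hairpin 2. For the mean of both hairpins, 9 were lower and 1 higher, or 12.5% and 1.39% beside 3.36% and 3.92% of all genes. Between hairpin 2 and the libraries labelled hairpin 1, 2 were lower and 10 higher in hairpin 2, or 2.78% and 13.9% beside 5.23% and 6.43%.

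Among 18 partners of CAF-1 and other chaperones of the fork, the median was -0.09 labelled hairpin 1 and -0.07 with hairpin 2. Pcna, the clamp itself, stood at 304 ± 6.19 CPM in control, 280 ± 11.4 labelled hairpin 1 and 303 ± 11.2 with hairpin 2 (SD, n = 3). For Nap1l1, an H2A-H2B chaperone, the log2 fold change was -0.08 (SE 0.09) labelled hairpin 1 and 0.085 (SE 0.09) with hairpin 2. For Ssrp1, of the FACT complex, it was -0.09 and 0.03 (SE 0.11 each). Ipo4, which imports H3-H4 bound to ASF1, was chosen after its values were seen. It stood at 50.5 ± 6.52 CPM in control and 35.1 ± 1.77 with hairpin 2 (log2 fold change -0.53, edgeR unadjusted p = 0.00119, adjusted p = 0.241). Labelled hairpin 1 its log2 fold change was -0.02. Tlk1, of the same list and chosen in the same way, was higher with hairpin 2. It stood at 75.2 ± 3.79 CPM in control and 92.3 ± 2.91 with hairpin 2 (log2 fold change 0.295, edgeR unadjusted p = 0.00814, adjusted p = 0.252). Labelled hairpin 1 the log2 fold change of Tlk1 was -0.09. Both were picked for their values, so nothing is read from these p-values. In the list of 14 clamp loaders and cohesion factors, the median was -0.17 and -0.16. Chtf8, a partner of Chtf18 in its clamp loader, was at 0.115 and 0.305 in log2 fold change (SE 0.20 each), opposite in sign to Chtf18. Dscc1, another partner in that loader, was at -0.22 and -0.425 (SE 0.20 each), the same sign as Chtf18. Rfc1, the large subunit of the main clamp loader, was at -0.09 and 0.02 (SE 0.12 each), and Rfc2, which both loaders share, at -0.03 and -0.11 (SE 0.09 each). Rfc3, Rfc4 and Rfc5, shared as well, were at -0.15, -0.20 and -0.09 labelled hairpin 1 and -0.46, -0.31 and -0.20 with hairpin 2. Of the 14 genes, 12 were below 0 labelled hairpin 1 and 8 with hairpin 2.

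Among 18 partners of maintenance methylation and heterochromatin, the median was -0.09 labelled hairpin 1 and -0.02 with hairpin 2. In log2 fold change, the corepressor gene Trim28 was at -0.12 and -0.135 (SE 0.12 each), and Ehmt2, an H3K9 methyltransferase gene, at 0.03 and 0.00 (SE 0.11 each). Cbx5, encoding HP1 alpha, was at -0.16 and 0.14 (SE 0.12 each). The 10 replication-independent chaperones had medians of -0.05 and 0.11, with Npm1, encoding nucleophosmin, at -0.03 and 0.06 (SE 0.10 each). Anp32e, a chaperone of H2A.Z, was at -0.14 and -0.09 (SE 0.11 each), and Hjurp, which loads the centromeric histone, at -0.04 and 0.16 (SE 0.20 each). The 12 genes of histone mRNA processing had medians of -0.10 and 0.06. Sympk, of the cleavage complex that also acts on histone messages, was at -0.04 in both contrasts (SE 0.11 each), and Cpsf2, of the same complex, at -0.01 and 0.17 (SE 0.11 each). Ncbp1, of the cap-binding complex, was at -0.22 and -0.095 (SE 0.09 each).

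**Figure D5:**
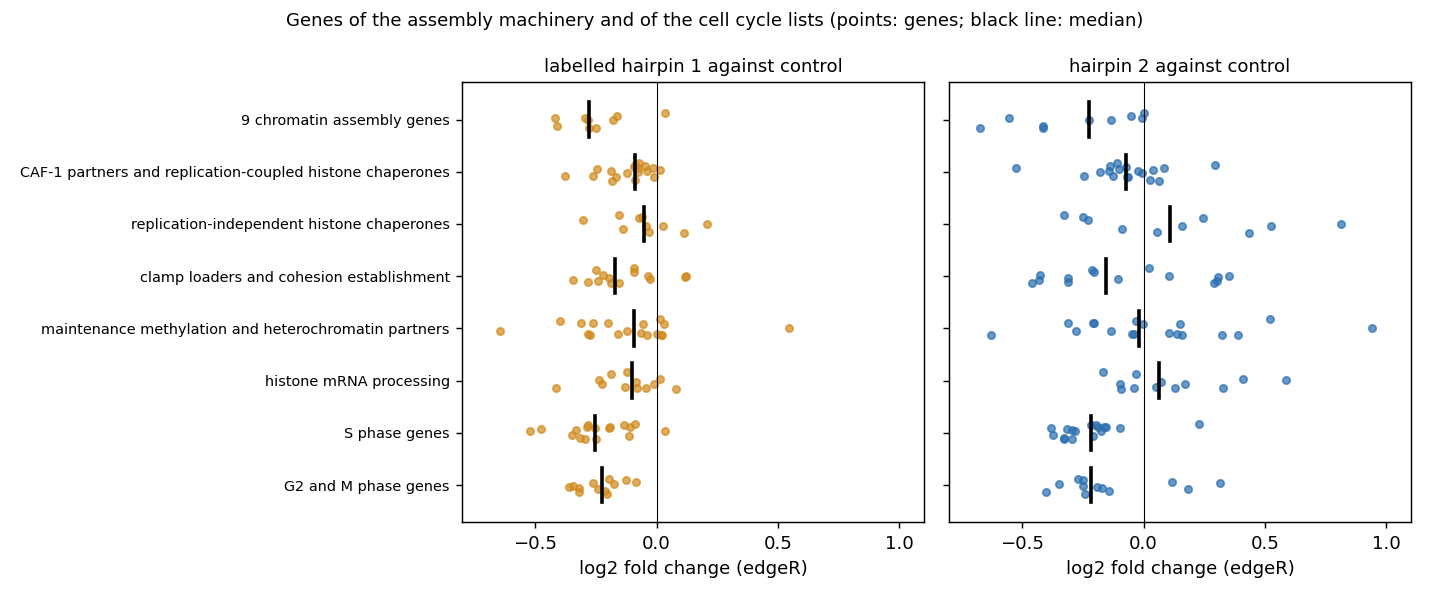
Log2 fold change against control (horizontal axis, edgeR) for the 9 chromatin assembly genes, the 5 partner lists and the lists of S phase genes and of G2 and M phase genes, labelled hairpin 1 on the left and hairpin 2 on the right; each point is a gene, vertical scatter is only for visibility, and the black line is the median. Medians of the 9 genes (-0.28 and -0.22) lie near those of the S phase list (-0.26 and -0.22), and those of the partner lists lie between -0.17 and 0.11.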

How the data were processed

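RNA from tumours was prepared with TRIzol and read on an Illumina NovaSeq, according to protocols in the labels. The authors deposited 1 table a library, with raw counts as whole numbers beside gene symbols. The submitters' processing notes list STAR 2.7.0d, Cufflinks, GRCh38 and hg38; these builds are human, while the symbols are mouse. Which counter, annotation and strand setting were used is not given in the sources used here. Positions, lengths and exon overlaps are from GENCODE M21 on GRCm38, and promoters from RefSeq on GRCm38.p6. The files hold 54532 entries, 27 of them with a date in place of a symbol.

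The test was edgeR's quasi-likelihood test (edgeR 4.0.16, R 4.3.3) with its robust option, on all 9 libraries in 3 groups. Genes were kept by filterByExpr with a minimum count of 10 and a total of 15, libraries were scaled by TMM, and p-values were adjusted by Benjamini-Hochberg over 14193 genes, with a threshold of 0.05. CPM use TMM-scaled library sizes, and log2 CPM a prior count of 2. The steps were tested on simulated counts. Library totals of 15322163 to 17342554 set the counting precision. Chi-square divided by its degrees of freedom was 19.9 to 71.3 for pairs within a group, so none was counted as a second deposit.

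The 9 genes, the lists and the motifs were chosen with earlier results of these data known. Named beside the 9 and Fbxo38 were the 3 most abundant tested genes of each list, any gene past the threshold, and the 5 genes nearest to Chaf1b and to Chtf18. Partner ratios, Ipo4, Tlk1, Dscc1, Rfc3, Rfc4 and Rfc5 were chosen after their values were seen. Alternatives were other scalings, no filter, DESeq2 1.42.0, limma-voom (limma 3.58.1), a replicate block, fits restricted to the groups compared, no robust option, removal of each library's trend in length and GC content (natural splines with 5 degrees of freedom), leaving out each library and, added later, leaving out both libraries that stood apart.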

Additional observations from a re-analysis of the deposited data

How the results depend on the processing

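Each gene's fold changes against control were refitted under 10 other settings of tool, scaling, filter, samples and model, and without each library in turn. Chaf1b, Asf1b, Chtf18, Uhrf1, Chaf1a and Slbp stayed below control in all of them, although the values of Chaf1a with hairpin 2 (-0.28 to -0.06) and of Slbp (-0.28 to -0.105 labelled hairpin 1, -0.365 to -0.14 with hairpin 2) moved by more than 1.5 times. With hairpin 2, Chaf1b ran from -0.77 to -0.54 and Chtf18 from -0.62 to -0.48; labelled hairpin 1 they ran from -0.37 to -0.20 and from -0.49 to -0.36. Nasp and Dnmt1 with hairpin 2 reached 0.05 and 0.08 when a library was left out. Removing the length and GC trend moved 3 values past the spread between replicates, to -0.28 for Chaf1a, -0.54 for Chaf1b and -0.29 for Asf1b with hairpin 2. The counts of genes past the adjusted p of 0.05 were 0 by edgeR; DESeq2 gave 303 with hairpin 2, 8 for the mean of both hairpins and 89 for hairpin 2 against those labelled hairpin 1, and the unfiltered fit 4 with hairpin 2 and 2 between the hairpins. Leaving out 1 library gave 0 to 2 with hairpin 2 and 0 to 1 between the hairpins. Same-numbered libraries of different groups deviated together in some pairs and apart in others (correlations -0.409 to 0.138), so no signal common to a number was seen. With 3 libraries a group this cannot show whether the samples were paired. With the replicate block the counts of called genes stayed at 0, and the genes at an unadjusted p under 0.05 were 1498 with hairpin 2 in place of 2046. That count of 2046 was 1137 without control replicate 3, 1330 without control replicate 2, 1113 without hairpin 2 replicate 2 and 1266 after removal of the length and GC trend. The 450 genes labelled hairpin 1 were 206 without control replicate 3. The 1655 between the hairpins were 974 without replicate 1 labelled hairpin 1, 738 without hairpin 2 replicate 2 and 652 with the trend removed.

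Between the hairpins, differences near 0 changed sign. Uhrf1 was 0.018 with library totals, 0.002 unfiltered and 0.044 with the length and GC trend removed, and ran from -0.124 to 0.107 when a library was left out. Slbp was 0.032 with the trend removed, 0.081 without both libraries that stood apart, and -0.183 to 0.042 with a library left out. Asf1a was 0.086 and Chaf1a -0.009 without both, and Asf1a ran from -0.11 to 0.054 with a library left out. Fbxo38 labelled hairpin 1 ran from -0.391 to 0.026. The cause of these moves was not tested. Counts of 337 to 7229 a library and 3 libraries a group limit the precision of these values.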

Other observations

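The 16 tested genes of the E2F and retinoblastoma list, which holds the regulators of S phase transcription, had no gene past edgeR's adjusted p of 0.05 in either contrast with control. At an unadjusted p under 0.05, 2 were lower and 0 higher labelled hairpin 1, beside 1.32% and 1.85% of all tested genes, and 2 were lower and 2 higher with hairpin 2, beside 6.27% and 8.14%. E2f1, encoding an activating E2F, stood at 103 ± 13.5 CPM in control, 90.6 ± 11 labelled hairpin 1 and 84.3 ± 11.8 with hairpin 2 (SD, n = 3). Ccnd1, encoding cyclin D1, stood at 200 ± 28.6, 155 ± 5.91 and 158 ± 17.1 CPM (log2 fold changes -0.36 and -0.34, SE 0.12 each; edgeR adjusted p = 1 and 0.270). Tfdp1, the dimer partner of E2F, stood at 134 ± 8.68, 118 ± 13.2 and 128 ± 19.1 CPM. The median log2 fold change of the list was -0.17 labelled hairpin 1 and 0.06 with hairpin 2.

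Of the 12 G2 and M phase genes, 12 were below 0 in log2 fold change labelled hairpin 1 and 9 with hairpin 2, with medians of -0.23 and -0.22. At an unadjusted p under 0.05, 4 of the 12 were lower and 0 higher in each contrast. Of all tested genes, 1.32% were lower and 1.85% higher labelled hairpin 1, and 6.27% and 8.14% with hairpin 2. The 3 most abundant members had the following levels. Top2a, encoding topoisomerase II alpha, stood at 508 ± 14.9 CPM in control, 430 ± 51.7 labelled hairpin 1 and 577 ± 78.6 with hairpin 2, and Mki67 at 245 ± 23.5, 204 ± 57.0 and 305 ± 105 CPM. Ccnb1, encoding cyclin B1, stood at 190 ± 13.0, 152 ± 8.09 and 169 ± 10.3 CPM. Top2a and Mki67 thus had higher means with hairpin 2 than in control, unlike the median of the list. None of the 12 passed edgeR's adjusted p of 0.05.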
